A study of Arabidopsis thaliana with 9 samples.

Results

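The 10 salicylic acid defence genes of Arabidopsis thaliana were compared across wild-type seedlings and seedlings of the mutants thp1-5 and sac3bc. They are PR1, PR2, PR5, LURP1, EDS1, PAD4, ICS1, SARD1, CBP60G and NIMIN1, 10 of the 37361 loci in the count files. They were picked by name, with their fold changes in both mutants already known, so their levels and fold changes are given as a description. No p-value is printed for them, and the calls made on them, counted beside the share of all genes called, support nothing. Polyadenylated RNA was sequenced from whole seedlings at 14 days that had received no treatment. All 3 genotypes grew on 1/2 MS medium with 1% sucrose at 22 °C in a cycle of 16 h light and 8 h dark. Col, the wild type, thp1-5, an allele of THP1, and sac3bc, labelled for SAC3B and SAC3C, had 3 libraries each. THP1 and the SAC3 proteins belong to TREX-2, which works at the nuclear pore and links the making of mRNA to its export. The labels do not say what lesion each allele carries, and they do not say whether the replicates came from separate plantings, so p-values measure the spread between these libraries, which may be technical.

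Salicylic acid is the hormone that plants make against biotrophic pathogens. In Arabidopsis most of it is made in the chloroplast from chorismate by isochorismate synthase, whose gene ICS1 is switched on by the transcription factors SARD1 and CBP60g. EDS1 and PAD4 form a lipase-like complex that carries the signal from intracellular immune receptors into this pathway. The hormone acts through NPR receptors and TGA factors on late genes such as PR1, PR2, PR5 and LURP1, and NIMIN1 binds NPR1 and restrains it.

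The 9 libraries held 12814326 to 17923310 counts each. CPM values below, each count over the scaled total of its library, use TMM scaling, whose factors were 0.863 to 0.870 in Col, 1.05 to 1.06 in thp1-5 and 1.09 to 1.1 in sac3bc. Scaled by total counts instead, the median of all tested genes stood 0.30 above Col in thp1-5 and 0.37 above Col in sac3bc on the log2 scale, and the median of sac3bc stood 0.05 above thp1-5. THP1 was at 11.6 to 14.1 CPM in Col, 11.1 to 12.7 in thp1-5 and 5.00 to 6.89 in sac3bc. SAC3B was at 46.7 to 47.2 CPM in Col, 30.8 to 36.4 in thp1-5 and 23.1 to 27.7 in sac3bc, and SAC3C was at 14.3 to 15.8, 12.8 to 13.7 and 7.56 to 7.96 CPM. SAC3A, a relative that neither label names, was at 59.4 to 67.4 CPM in Col, 36.7 to 40.1 in thp1-5 and 12.1 to 13.9 in sac3bc. Its log2 fold change in sac3bc against Col was -2.32 ± 0.06, a larger drop than those of SAC3B (-0.87 ± 0.06) and SAC3C (-0.97 ± 0.10), which the label names. What these libraries carry at SAC3A, SAC3B and SAC3C was not settled from the labels or the counts, so sac3bc below means the libraries labelled so.

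Summed over 4 photosynthesis genes as shoot markers, levels were 42300 to 43500 CPM in Col, 26600 to 27800 in thp1-5 and 23200 to 24200 in sac3bc, and all 4 genes were lower in both mutants. Of 5 root markers, 4 were higher in both mutants and PYK10 was lower. The 5 summed to 3680 to 3750 CPM in Col, 1760 to 1800 in thp1-5 and 1760 to 1810 in sac3bc. Flower markers were near 0, at a sum of 0.352 to 2.56 CPM over all libraries. Seed storage genes summed to 70.1 to 72.9 CPM in Col, 17.7 to 18.8 in thp1-5 and 1.43 to 2.84 in sac3bc. The senescent leaf markers summed to 43.2 to 46.2 CPM in Col, 54.8 to 58.3 in thp1-5 and 57.0 to 58.2 in sac3bc, and SAG12, the defining one, had 0 counts in every library. SAG29 rose in both mutants, from 18.3 CPM to 40.7 and 35.4, NAP fell in both, from 11.5 CPM to 2.9 and 4.47, and ORE1 was at 14.7, 13.1 and 17.7 CPM, not called in thp1-5 (edgeR adjusted p = 0.0932) and higher in sac3bc. The part these organ and age differences play in the levels below was not tested, and in RNA from whole seedlings fewer cells of a type cannot be told apart from less RNA per cell.

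The sequences just upstream of 9 of the genes were read for 4 short motifs linked to this pathway. The windows ran from 250 bases before to 50 bases after each gene start in the TAIR10.1 genome of RefSeq. The motifs, searched on both strands, were TGACG, the core bound by TGA factors, TTGAC, the W-box core bound by WRKY factors, CGCG, a core bound by CAMTA factors, and GAAATTT, a core reported for CBP60g and SARD1. The joint form TTGACG holds both of the first pair, so a base run can count for both. Promoters of 3 genes are printed because they span the range seen, with each motif in capitals: SARD1 (chr1:27749199-27749498, minus strand) held the most, ICS1 (chr1:28070045-28070344, plus strand) was the only one of the 9 with GAAATTT, and LURP1 (chr2:6213367-6213666, plus strand), whose level moved widely between the mutants, held none.
SARD1: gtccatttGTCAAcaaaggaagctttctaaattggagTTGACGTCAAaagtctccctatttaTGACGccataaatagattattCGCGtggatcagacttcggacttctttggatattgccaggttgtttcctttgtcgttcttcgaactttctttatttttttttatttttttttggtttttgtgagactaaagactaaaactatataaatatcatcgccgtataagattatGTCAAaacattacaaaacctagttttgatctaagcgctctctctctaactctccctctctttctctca
ICS1: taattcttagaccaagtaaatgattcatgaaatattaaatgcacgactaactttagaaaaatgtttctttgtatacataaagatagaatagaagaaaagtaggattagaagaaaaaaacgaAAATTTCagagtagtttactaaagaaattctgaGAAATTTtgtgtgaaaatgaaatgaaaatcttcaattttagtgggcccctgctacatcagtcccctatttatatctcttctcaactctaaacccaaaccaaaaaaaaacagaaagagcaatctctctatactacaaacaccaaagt
LURP1: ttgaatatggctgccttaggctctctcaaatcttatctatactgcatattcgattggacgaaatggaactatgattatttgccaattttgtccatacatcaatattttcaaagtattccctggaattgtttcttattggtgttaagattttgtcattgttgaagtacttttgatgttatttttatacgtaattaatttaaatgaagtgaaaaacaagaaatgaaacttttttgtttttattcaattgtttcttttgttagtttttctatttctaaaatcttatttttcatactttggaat

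The SARD1 window held 3 matches to TGACG, 4 to TTGAC and 1 to CGCG, with a palindromic run at its distal end where both TGACG and TTGAC match on both strands. ICS1 held 2 matches to GAAATTT, starting 129 and 96 bases before the gene start, on opposite strands. LURP1 and NIMIN1 held none of the 4 motifs. Over the 9 genes TTGAC was present in 6 windows, TGACG in 2, CGCG in 2 and GAAATTT in 1. Of 27443 promoter windows of the same length, TTGAC was present in 50.5%, TGACG in 23.1%, CGCG in 13.0% and GAAATTT in 14.2%. These are matches to letters and do not show that a factor binds, and a window without a match says only that the letters are not in it.

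**Figure D1:**
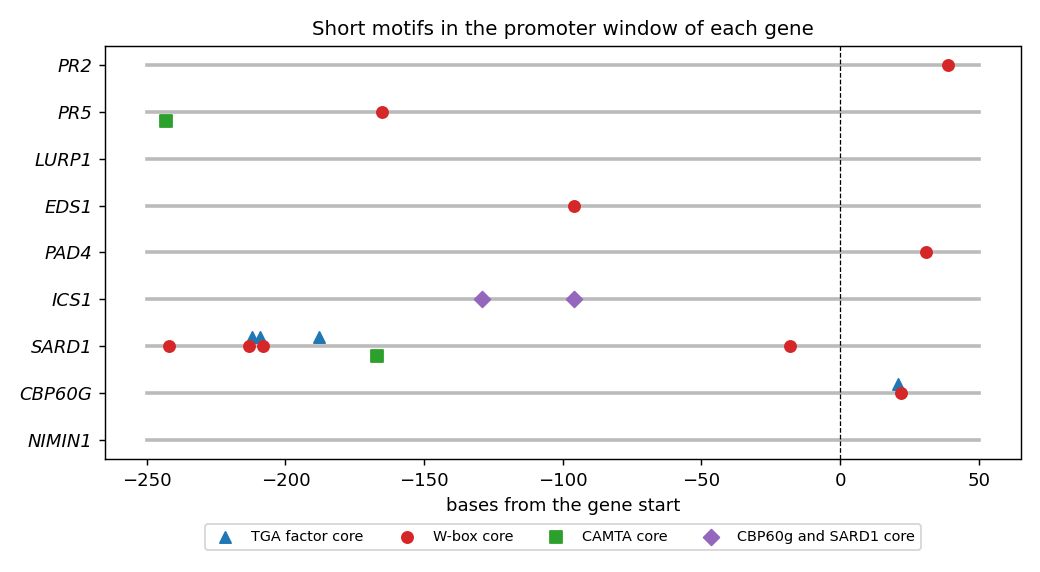
Positions of 4 short motifs in the promoter window of 9 of the genes. The x axis is the distance in bases from the gene start (dashed line), each grey bar is 1 window of 300 bases, and each symbol is the first base of 1 match on either strand. SARD1 carried 8 of the 17 matches drawn, and LURP1 and NIMIN1 carried 0.

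The late genes PR1 and LURP1 were below every Col library in thp1-5, where 32.6% of tested genes were, and above every Col library in sac3bc, where 35.8% were. The share of tested genes that met both conditions was not counted. PR1 (AT2G14610) encodes a small secreted antimicrobial protein and is the usual marker of salicylic acid signalling. It was at 1.06, 0.589 and 1.5 CPM in the Col libraries, 0, 0.113 and 0.0704 CPM in thp1-5, and 5.44, 5.47 and 6.12 CPM in sac3bc. The 3 groups did not overlap, and the sac3bc libraries were the high ones. Counts in the order of the libraries were 12, 8 and 20 in Col, 0, 2 and 1 in thp1-5, and 95, 104 and 120 in sac3bc.

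With 3 counts in all, the PR1 level of thp1-5 was at the limit of detection. The summed counts gave a thp1-5 to Col ratio of 0.0632 (95% interval 0.0125 to 0.199, counting error only), and a sac3bc to thp1-5 ratio of 86.0 (29.2 to 419). The fitted log2 fold change was 2.43 ± 0.23 (SE) in sac3bc against Col. In thp1-5 it was -3.83 ± 0.61 against Col, a value that depends on the prior count of the fit and is no bound. PR1 passed the filter on low counts only through the sac3bc libraries.

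LURP1 (AT2G14560), a gene needed for full basal resistance to the oomycete Hyaloperonospora parasitica, was at 4.41, 5.67 and 4.50 CPM in Col, 1.12, 0.847 and 2.25 CPM in thp1-5, and 15.7, 15.5 and 14.8 CPM in sac3bc. The 3 groups again did not overlap, and thp1-5 replicate 3 was the highest of its group. The log2 fold change was -1.83 ± 0.21 in thp1-5 and 1.65 ± 0.13 in sac3bc, both against Col, which is 3.55-fold lower and 3.14-fold higher. LURP1 was 11.1-fold higher in sac3bc than in thp1-5.

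LURP1 and PR1 lie on chromosome 2, LURP1 at 6213617 to 6215932 on the plus strand and PR1 at 6241640 to 6242541 on the minus strand (TAIR10.1), a span of 28925 bases. The genes between them were looked at after these positions were seen. PRB1, the closest relative of PR1 (80.9% identity over 650 bases) and a basic PR1-type protein gene, is one of 6 loci in between. It was at 2.12, 1.99 and 2.40 CPM in Col, 0.595, 1.13 and 1.2 CPM in thp1-5, and 1.32, 1.74 and 1.22 CPM in sac3bc. PRB1 was thus below Col in both mutants, with log2 fold changes of -1.13 ± 0.30 (edgeR adjusted p = 0.000644) and -0.60 ± 0.27 (edgeR adjusted p = 0.0404). The second was -0.27 and not called with total counts, and its call was also lost with DESeq2 and without Col replicate 1 (-0.62), Col replicate 3 (-0.52), sac3bc replicate 1 (-0.55) or sac3bc replicate 3 (-0.50). The other 5 loci had between 0 and 1 count in each library.

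PR2 and PR5, the other late genes, overlapped Col in thp1-5. PR2 (AT3G57260, chr3:21188397-21189967, minus strand), a beta-1,3-glucanase that cuts fungal cell walls, was at 2.91, 2.13 and 2.1 CPM in Col, 2.01, 1.81 and 2.32 CPM in thp1-5, and 11.6, 14.4 and 13.0 CPM in sac3bc. Col and thp1-5 overlapped and sac3bc stood above both. The log2 fold change of PR2 was 2.46 ± 0.15 in sac3bc against Col, or 5.51-fold, close to that of PR1 in the same libraries. In thp1-5 against Col it was -0.21 ± 0.23, and 0.07 with total counts.

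PR5 (AT1G75040, chr1:28177670-28179022, plus strand), a thaumatin-like protein, was the late gene with the smallest differences. It was at 1.76, 2.72 and 1.73 CPM in Col, 2.38, 1.81 and 1.62 CPM in thp1-5, and 2.52, 3.26 and 2.86 CPM in sac3bc. All 3 sac3bc libraries were above thp1-5, but Col replicate 2 lay inside the sac3bc range. The log2 fold change was 0.47 ± 0.23 in sac3bc and -0.12 ± 0.25 in thp1-5 against Col, and the second was 0.17 with total counts and 0.14 without Col replicate 2.

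**Figure D2:**
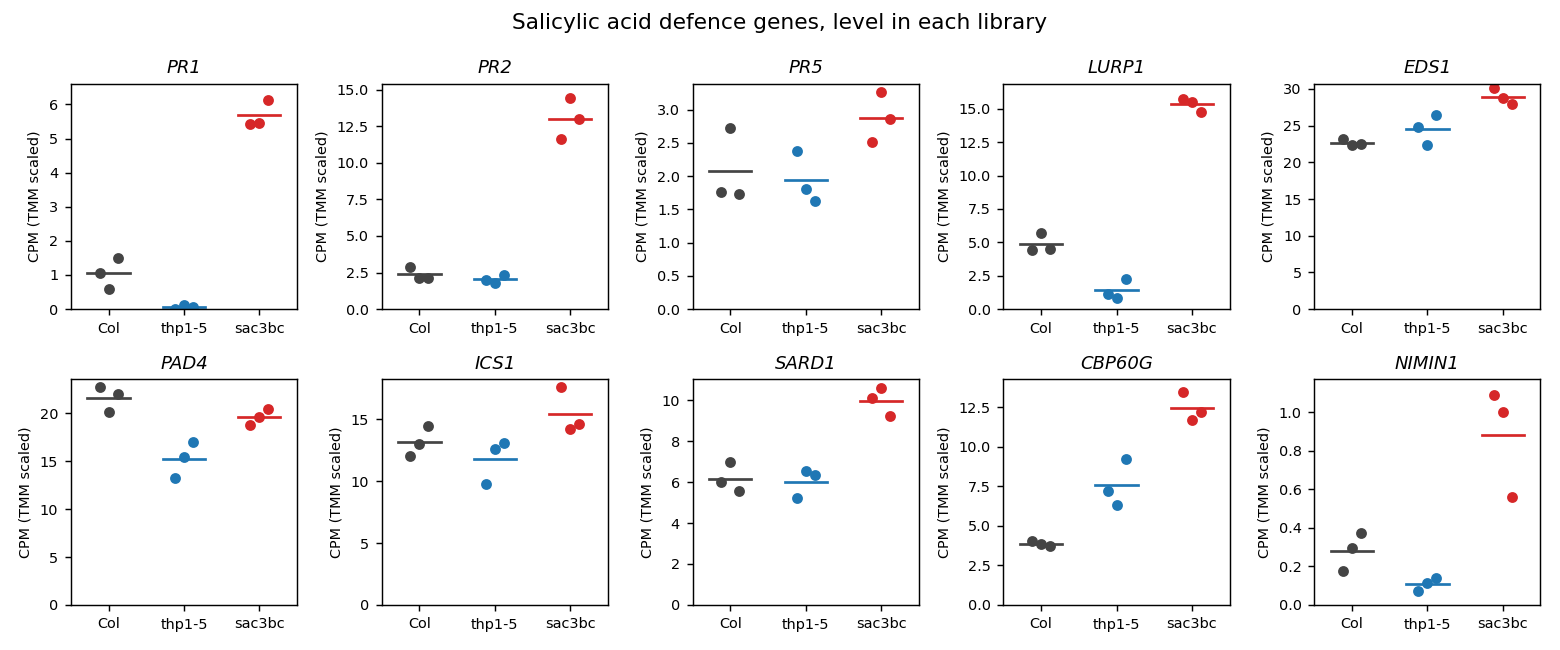
Level of each of the 10 genes in each library. Each panel is 1 gene with its own y axis in CPM (TMM scaled, from 0), points are the 3 libraries of Col, thp1-5 and sac3bc, and the line is the group mean. PR1 and LURP1 lie below Col in thp1-5 and above it in sac3bc, CBP60G lies above Col in both, and PAD4 is lowest in thp1-5.

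The transcription factor genes upstream of ICS1 were above Col in sac3bc, as PR1 was, but did not follow PR1 below Col in thp1-5. CBP60G (AT5G26920, chr5:9475679-9478777, plus strand), a calmodulin-binding factor that activates ICS1, was at 4.06, 3.83 and 3.75 CPM in Col, 7.22, 6.33 and 9.22 CPM in thp1-5, and 13.5, 11.7 and 12.2 CPM in sac3bc. The 3 groups did not overlap, and thp1-5 was between the other two. CBP60G was 1.94-fold higher in thp1-5 and 3.21-fold higher in sac3bc than in Col, at log2 fold changes of 0.96 ± 0.15 and 1.68 ± 0.14. It was therefore on the other side of Col from PR1 and LURP1 in thp1-5.

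SARD1 (AT1G73805, chr1:27744790-27749248, minus strand), its partner in activating ICS1, was at 6.0, 6.99 and 5.55 CPM in Col, 5.21, 6.55 and 6.33 CPM in thp1-5, and 10.1, 10.6 and 9.23 CPM in sac3bc. Col and thp1-5 overlapped and sac3bc was above both, with log2 fold changes of -0.03 ± 0.14 in thp1-5 and 0.69 ± 0.13 in sac3bc against Col. The first was 0.26 with total counts. SARD1 shares 18.4% of its exonic bases with the antisense gene GIP2, and since no source used here says whether counting used strand, reads from the 2 genes cannot be told apart there. GIP2 itself was at means of 5.65, 4.8 and 5.33 CPM in Col, thp1-5 and sac3bc, with no call in any comparison (edgeR adjusted p = 0.202, 0.595 and 0.575 for thp1-5 against Col, sac3bc against Col and sac3bc against thp1-5).

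ICS1 (AT1G74710, chr1:28070295-28074177, plus strand), the synthesis gene that both factors act on, differed little between genotypes. It was at 12, 13 and 14.5 CPM in Col, 9.74, 12.6 and 13.1 CPM in thp1-5, and 17.6, 14.2 and 14.6 CPM in sac3bc. The libraries of Col overlapped those of both mutants, and sac3bc replicate 1 was the highest. The log2 fold change against Col was -0.15 ± 0.11 in thp1-5 (0.13 with total counts) and 0.22 ± 0.10 in sac3bc, and the second was 0.12 without sac3bc replicate 1, 0.16 without Col replicate 1 and 0.21 without Col replicate 2. The sac3bc libraries were all above thp1-5, at 0.37 ± 0.10, or 0.27 without thp1-5 replicate 1.

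EDS1 and PAD4, whose proteins work as a pair, were the most abundant of the 10 genes in Col and differed from each other. EDS1 (AT3G48090, chr3:17755329-17758147, minus strand) was at 23.2, 22.3 and 22.5 CPM in Col, 24.8, 22.4 and 26.4 CPM in thp1-5, and 30.1, 28.8 and 28 CPM in sac3bc. It was highest in sac3bc, at a log2 fold change of 0.35 ± 0.07 against Col, and overlapped Col in thp1-5, at 0.11 ± 0.07, or 0.40 with total counts. Against thp1-5 it was 0.25 ± 0.07 higher in sac3bc, or 0.18 without thp1-5 replicate 2. PAD4 (AT3G52430, chr3:19431095-19434450, plus strand) was at 22.8, 20.1 and 22.0 CPM in Col, 13.3, 15.4 and 17.0 CPM in thp1-5, and 18.8, 19.6 and 20.5 CPM in sac3bc.

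Every thp1-5 library was thus below every other library for PAD4, while Col and sac3bc overlapped. The PAD4 log2 fold change in thp1-5 against Col was -0.50 ± 0.09, and -0.21 with total counts. In sac3bc against Col it was -0.13 ± 0.08 and not called, and 0.20 and called higher with total counts. EDS1 has a close copy next to it, AT3G48080 (82.6% identity over 2186 bases), so its reads could be split in counting. The copy was at means of 3.69, 3.54 and 4.34 CPM in Col, thp1-5 and sac3bc, with no call in any comparison (edgeR adjusted p = 0.867, 0.206 and 0.237 in the same order as for GIP2). AT3G48080 shares 19.53% of its exonic bases with the antisense locus AT3G48070, where reads cannot be told apart, as for SARD1.

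NIMIN1 (AT1G02450, chr1:497917-498539, minus strand) did not pass the filter on low counts and was not tested. It was at 0.176, 0.294 and 0.375 CPM in Col, 0.0744, 0.113 and 0.141 CPM in thp1-5, and 1.09, 1.00 and 0.561 CPM in sac3bc, and the 3 groups did not overlap in CPM. NIMIN1 counts were 2, 4 and 5 in Col and 1, 2 and 2 in thp1-5, so only the scaling keeps these groups apart. Its summed counts were 11 in Col, 5 in thp1-5 and 49 in sac3bc. The ratio of sac3bc to Col was 3.04 (95% interval 1.56 to 6.48, counting error only) and that of thp1-5 to Col was 0.383 (0.104 to 1.2), so a difference between thp1-5 and Col was not detectable at this depth. Outside PR1 and EDS1, the nearest relatives found by sequence ran from 68.3% identity for CBP60G to 86.7% over 465 bases for LURP1, and PAD4 had no match.

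Per kilobase of exon the order of the 10 genes changed with genotype. In Col it ran from PAD4 at 9.58 ± 0.608 CPM per kb and EDS1 at 8.89 ± 0.184 (SD, n = 3), which did not differ beyond their spread, through ICS1 at 6.04 ± 0.572 and SARD1 at 2.58 ± 0.308, down to PR1 at 1.16 ± 0.505 and NIMIN1 at 0.453 ± 0.160. LURP1, PR5, CBP60G and PR2 lay between SARD1 and PR1, at 2.18 ± 0.314, 1.89 ± 0.516, 1.68 ± 0.0692 and 1.61 ± 0.310, and the neighbours among these did not differ beyond their spread. In thp1-5 EDS1 was first at 9.61 ± 0.781 CPM per kb, followed by PAD4 at 6.75 ± 0.811, and NIMIN1 at 0.176 ± 0.0535 and PR1 at 0.0678 ± 0.0633 were lowest, on 5 and 3 counts, with spreads that meet.

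The order in sac3bc put late genes among the regulators. EDS1 was first at 11.4 ± 0.404 CPM per kb, followed by PR2 at 8.80 ± 0.967 and PAD4 at 8.70 ± 0.372, which did not differ beyond their spread. ICS1 at 7.09 ± 0.848, LURP1 at 6.88 ± 0.206 and PR1 at 6.29 ± 0.426 came next, with spreads that meet from one to the next. PR5 and NIMIN1 were last, at 2.63 ± 0.340 and 1.42 ± 0.453. PR1 was thus in the sixth place in sac3bc.

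**Figure D3:**
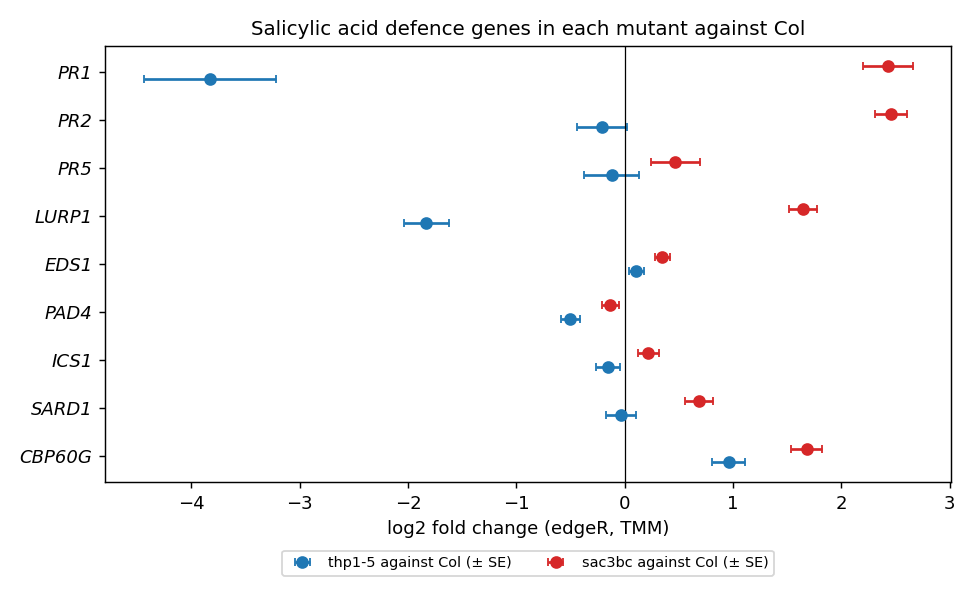
Log2 fold change of 9 of the 10 genes against Col, in thp1-5 (blue) and in sac3bc (red). The x axis is the edgeR log2 fold change with TMM scaling, bars are ± 1 SE, and NIMIN1 is left out because it was not tested. PR1 and LURP1 lie on opposite sides of 0 in the 2 mutants, at -3.83 and 2.43 and at -1.83 and 1.65, and both comparisons use the same 3 Col libraries.

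Of the 9 genes that passed the filter, 1 was called higher (CBP60G) and 3 lower (PR1, LURP1 and PAD4) in thp1-5 against Col, where 63.8% of all 22400 tested genes were called at an adjusted p under 0.05 in edgeR's quasi-likelihood test, 32.1% higher and 31.8% lower. PR1 is among the 3 only because the sac3bc libraries carried it past the filter, and it was left out of a fit of Col and thp1-5 alone. In sac3bc against Col, 7 were called higher and 0 lower, where 68% of all tested genes were called, 35% higher and 33% lower. At an unadjusted p under 0.05 the counts were 8 and 0, and with DESeq2 6 and 0. The 2 not called with TMM were PR5 and PAD4, and PR5 was at 0.72 without Col replicate 2 and 0.55 without sac3bc replicate 1. With total counts 9 were called higher and 0 lower in sac3bc, PR5 (0.80) and PAD4 (0.20) among them. In thp1-5 total counts gave 2 higher and 3 lower. At least 2-fold lower than Col in thp1-5 were PR1 and LURP1, a class that held 4.53% of tested genes beside 4.95% at least 2-fold higher. At least 2-fold higher than Col in sac3bc were PR1, PR2, LURP1 and CBP60G, a class that held 7% of tested genes beside 5.57% at least 2-fold lower.

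In sac3bc against thp1-5, 9 were called higher and 0 lower, where 23% of tested genes were called, 10.9% higher and 12.1% lower. The counts at an unadjusted p under 0.05 were 9 and 0, and with DESeq2 8 and 0. PR1, LURP1 and PR2 were among those called at least 2-fold higher, a class that held 0.817% of tested genes beside 0.223% at least 2-fold lower. PR5 was at 0.59 ± 0.22, and at 0.53, 0.48, 0.49 and 0.59 without thp1-5 replicate 2, thp1-5 replicate 3, sac3bc replicate 2 and sac3bc replicate 3. Libraries of sac3bc lay above all of thp1-5 for each of the 9 genes, as they did for 17.1% of tested genes, and below for 17.6%. Libraries of thp1-5 lay above all of Col for CBP60G, as for 32.9% of tested genes, and those of sac3bc lay below all of Col for none of the 9 genes, beside 33.5% of tested genes. The median log2 fold changes of the 9 genes were -0.15, 0.69 and 0.72 in the 3 comparisons, beside medians of all tested genes of 0.01, 0.03 and -0.00. With total counts they were 0.13, 1.02 and 0.77, beside 0.30, 0.37 and 0.05. These contrasts chose the genes, so the calls repeat what chose them and nothing is read from the counts.

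Some genes outside the 10 had a profile of almost the same shape over the 9 libraries. These fall into 3 genotype groups, so a likeness is mostly of the 3 group levels and is given as a description. Pearson's r does not measure the size of a change, and several of these genes differed far less between genotypes than the member. The nearest to both PR1 and LURP1 was DMR6, whose enzyme hydroxylates salicylic acid and lowers resistance to downy mildew, with Pearson's r of 0.985 and 0.979 on log2 CPM. DMR6 was at 16.8, 17.0 and 18.2 CPM in Col, 12.6, 13.0 and 14.1 CPM in thp1-5, and 20.7, 21.3 and 21.6 CPM in sac3bc, so its range was much narrower than that of either gene. After DMR6, AT3G28940 (0.984) and AT2G41090 (0.982) were nearest to PR1, and HAP8 (0.977) and P4H2 (0.971) to LURP1. HAP8 was at log2 fold changes of only -0.06 in thp1-5 and 0.07 in sac3bc against Col, with no call in any comparison. For PR2 the nearest were ERD6 (0.995), a sugar transporter family gene, CSLE1 (0.995) and SIP3 (0.989). In sac3bc against Col these were 1.32-, 1.22- and 1.12-fold higher, where PR2 was 5.51-fold higher. For CBP60G the nearest were LON1 (0.993), AT4G19006 (0.992) and ZF2 (0.992). SARD1 was nearest to AT5G44910 (0.981), AER (0.971) and AT1G27350 (0.969).

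The remaining members had lower best values. EDS1 was nearest to AT5G59850 (0.974), MLO12 (0.973) and AT3G16080 (0.968), and PAD4 to CYP71B3 (0.973), AT1G09433 (0.965) and UMAMIT20 (0.961). PR5 was nearest to AT1G24050 (0.951), which was not called in any comparison, ChiC (0.916) and AT3G04285 (0.914). ICS1 was nearest to ARF1 (AT1G23490, 0.937), AT1G80230 (0.934) and FKBP15-1 (0.934).

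The rest of the pathway was read from 9 lists of 109 other defence genes, of which 97 were tested, with edgeR's adjusted p over all 22400 genes. These lists were chosen with earlier results of these data known. The counts, shares and p-values of listed genes are thus a description, and no excess over all tested genes is read from them. Against Col, 31 rose and 26 fell in thp1-5, and 43 rose and 20 fell in sac3bc, so that 58.8% and 64.9% of them were called beside 63.8% and 68% of all tested genes. The direction of these calls moves with scaling: with total counts 57 rose and 13 fell in thp1-5, and 75 rose and 7 fell in sac3bc. Between the mutants, 39 were higher and 7 lower in sac3bc than in thp1-5, or 43 and 2 with total counts, and 51 were not called, so 47.4% were called beside 23% of all tested genes. The median log2 fold change between the mutants was 0.16, beside -0.00 for all tested genes. The counts of each list below stand beside these shares of all tested genes with TMM. Against Col, 32.1% were called higher and 31.8% lower in thp1-5, and 35% higher and 33% lower in sac3bc. Between the mutants, 10.9% were called higher and 12.1% lower in sac3bc.

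Of 8 genes of salicylic acid synthesis and export, 3 rose and 4 fell in each mutant against Col, with medians of -0.12 and -0.02, and with total counts 4 rose and 2 fell in thp1-5 and 6 rose and 2 fell in sac3bc. PBS3, the enzyme that conjugates isochorismate to glutamate on the way to salicylic acid, was at 7.94, 5.37 and 6.98 CPM in Col, 1.12, 0.621 and 0.704 CPM in thp1-5, and 3.09, 2.26 and 2.55 CPM in sac3bc. PBS3 fell in both mutants, by 3.07 and by 1.35 on the log2 scale (SE 0.24 and 0.18, edgeR adjusted p = 2.66e-24 and 1.84e-11). Unlike PR1, it stayed below Col in sac3bc, though above thp1-5 by 1.71 ± 0.27 (edgeR adjusted p = 7.66e-08).

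PAL1, the first enzyme of the phenylpropanoid route to salicylic acid, rose by 1.07 ± 0.03 in thp1-5 and 1.22 ± 0.03 in sac3bc, from a mean of 113 CPM in Col to 237 and 264. ICS2, the second isochorismate synthase gene and the closest relative of ICS1 (79.7% identity over 1524 bases), fell from 41.1 CPM to 23.8 and 20.7. EPS1, which acts after PBS3, rose by 0.64 and 0.48, and PAL3 by 0.39 and 0.59. EDS5, the exporter that moves isochorismate out of the chloroplast, fell by 0.24 in thp1-5 with TMM only (0.05 with total counts, not called) and was 0.28 ± 0.09 higher in sac3bc than in thp1-5 (edgeR adjusted p = 0.0146), a call lost with DESeq2 and without thp1-5 replicate 1 (0.26) or sac3bc replicate 2 (0.22).

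Among genes that modify salicylic acid, 8 of 10 were tested, and 2 rose and 3 fell in thp1-5 (median 0.16, or 4 and 1 with total counts) while 5 rose and 1 fell in sac3bc (median 0.26, or 7 and 1). DMR6 and the glucosyltransferase gene UGT74F2 were lower in thp1-5 and higher in sac3bc than in Col. With total counts, neither was called in thp1-5, at -0.11 and 0.10. UGT76B1, which glycosylates N-hydroxypipecolic acid and salicylic acid, rose in both, by 0.71 and 1.09, and MES9, a methyl salicylate esterase gene, fell in both, by 0.76 and by 0.83. DLO1, a second salicylic acid hydroxylase gene, rose by 1.07 ± 0.30 in sac3bc, and GH3.5 rose by 0.47 and 0.24.

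The relatives of CBP60G and SARD1 with the CAMTA factors, which hold both genes down, made a list of 9, of which 3 rose and 2 fell in thp1-5 and 2 rose and 2 fell in sac3bc, with medians of -0.06 in each. With total counts 7 rose and 0 fell in each mutant. CAMTA3, the main repressor, was at means of 75.5, 68.0 and 69.4 CPM, and its log2 fold change against Col turned from -0.15 to 0.14 in thp1-5 and from -0.12 to 0.22 in sac3bc with total counts. The sac3bc value was -0.09 and not called without Col replicate 3 or sac3bc replicate 1. CAMTA1 likewise went from -0.19 to 0.10 and from -0.30 to 0.04, while CAMTA2 rose by 0.31 and 0.27. AT2G24300 rose in both, by 1.23 and 1.42, and AT4G31000 rose in thp1-5 by 0.28 ± 0.12, a call lost with DESeq2 and without Col replicate 1 (0.27), Col replicate 3 (0.18), thp1-5 replicate 2 (0.26) or thp1-5 replicate 3 (0.28). Between the mutants 0 of the 9 were called by edgeR, with 3 at an unadjusted p under 0.05 and 0 by DESeq2, while CBP60G and SARD1 were at 0.73 ± 0.11 and 0.72 ± 0.12.

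Of 14 tested genes for NPR receptors, TGA factors and NIMINs, 6 rose and 2 fell in thp1-5 (median 0.18) and 8 rose and 2 fell in sac3bc (median 0.14), and with total counts 11 rose and 1 fell in each. NIMIN2, among the 8, passed the filter on low counts only through the sac3bc libraries, so its call adds no support. Its counts were 13, 7 and 8 in Col, 12, 10 and 7 in thp1-5, and 26, 23 and 26 in sac3bc. NPR1, the salicylic acid receptor and coactivator, was at means of 37.3, 34.6 and 33.2 CPM, and its log2 fold change in sac3bc was -0.17 ± 0.06 with TMM and 0.17 with total counts, called in both directions. NPR3 rose by 0.46 and 0.53, TGA2 by 0.39 and 0.34 and TGA5 by 0.33 and 0.42. AT4G26120, a relative of NPR1, rose by 1.85 ± 0.33 and 2.60 ± 0.29 from 0.579 CPM. NIMIN3, a relative of NIMIN1 whose protein also binds NPR1, fell by 1.15 and by 0.98, on the other side of Col from NIMIN1 in sac3bc. TGA3 was 0.19 ± 0.05 higher in sac3bc than in thp1-5 (edgeR adjusted p = 0.00109).

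For the 16 genes of the EDS1 node and intracellular immune receptors, 3 rose and 6 fell in thp1-5 (median -0.13) and 3 rose and 7 fell in sac3bc (median -0.10), whereas with total counts 9 rose and 1 fell and 10 rose and 1 fell. ADR1, a helper receptor that works with EDS1 and PAD4, rose from 5.44 CPM to 12.7 and 13.9, by 1.23 ± 0.13 and 1.36 ± 0.12. RPP4, a receptor gene for downy mildew resistance, fell from 246 CPM to 140 in both, by 0.82 and by 0.81 (SE 0.03 in each). RPP4 belongs to a cluster of similar receptor genes that includes SNC1, so reads could be split among them. ADR1-L2 rose by 0.41 and 0.54, and SAG101, the third partner of EDS1, by 0.29 and 0.45. The first of the SAG101 calls was lost without Col replicate 1 (0.24) or thp1-5 replicate 1 (0.21). ADR1-L1 was 0.15 ± 0.04 higher and NDR1 0.47 ± 0.18 higher in sac3bc than in thp1-5, and both calls were lost with DESeq2. That of NDR1 was also lost without thp1-5 replicate 1 (0.36) or 3 (0.46) and without sac3bc replicate 1 (0.33) or 2 (0.39). ADR1-L1 shares 23.35% of its exonic bases with antisense loci, where reads cannot be told apart, as for SARD1. The same holds for 100% of the exonic bases of RPS2, which was not called in any comparison with TMM.

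Of 8 tested genes of systemic acquired resistance, 4 rose and 2 fell in thp1-5 (median 0.28) and 5 rose and 0 fell in sac3bc (median 1.1, with 5 and 0 at an unadjusted p under 0.05 and by DESeq2). DIR1, among the 4, shares 100% of its exonic bases with the antisense locus AT5G48480, where reads cannot be told apart, as for SARD1. With total counts 4 rose and 1 fell in thp1-5 (median 0.57) and 8 rose and 0 fell in sac3bc (median 1.43). FMO1, among the 5, passed the filter on low counts only through the sac3bc libraries, so its call adds no support. Its counts were 2, 3 and 3 in Col, 5, 7 and 4 in thp1-5, and 12, 22 and 14 in sac3bc. AZI1 and EARLI1, similar lipid transfer protein genes between which reads could be split, rose in both mutants, AZI1 from 24.6 CPM to 59.7 and 121 and EARLI1 from 20.2 CPM to 55.9 and 108. AED1, an aspartyl protease gene, and AT5G03350 were lower in thp1-5 and higher in sac3bc than in Col, though AED1 was not called in thp1-5 with total counts (-0.27). AED1 was at 5.03, 6.62 and 5.33 CPM in Col, 4.17, 3.95 and 3.45 CPM in thp1-5, and 14.9, 17.0 and 18.2 CPM in sac3bc, with log2 fold changes of -0.56 ± 0.16 (edgeR adjusted p = 0.00123) and 1.55 ± 0.12 against Col. AT5G03350 was at 5.56, 7.21 and 6.15 CPM in Col, 2.83, 1.53 and 1.41 CPM in thp1-5, and 9.39, 9.10 and 11.2 CPM in sac3bc, with -1.75 ± 0.19 and 0.64 ± 0.13.

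**Figure D4:**
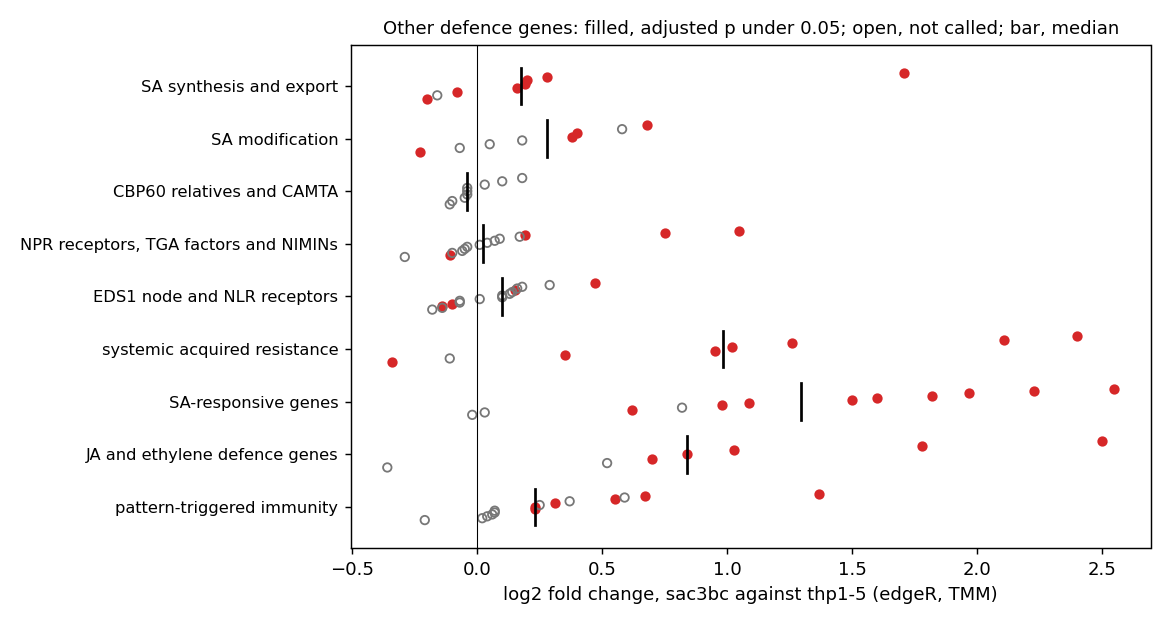
Log2 fold change of sac3bc against thp1-5 for the tested genes of 9 lists of other defence genes. The x axis is the edgeR log2 fold change with TMM scaling, each point is 1 gene, filled at an adjusted p under 0.05, and the bar is the median of the list. The medians were 1.29 for salicylic acid responsive genes, 0.98 for systemic acquired resistance and 0.84 for jasmonate and ethylene defence genes. For CBP60 relatives and CAMTA factors the median was -0.04.

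Among the other salicylic acid responsive genes 12 of 17 were tested, and 2 rose and 3 fell in thp1-5 (median -0.15) while 6 rose and 1 fell in sac3bc (median 0.76). With total counts 5 rose and 3 fell and 10 rose and 1 fell. Between the mutants 9 were higher and 0 lower in sac3bc by edgeR and by DESeq2 (10 and 0 at an unadjusted p under 0.05), with a median of 1.29. Total counts gave 10 higher and 0 lower there. WRKY70, a factor that promotes salicylic acid responses, was at 10.6, 10.7 and 7.88 CPM in Col, 5.36, 7.06 and 6.19 CPM in thp1-5, and 17.9, 18.1 and 17.3 CPM in sac3bc. It fell by 0.63 ± 0.13 in thp1-5 and rose by 0.87 ± 0.10 in sac3bc (edgeR adjusted p = 7.01e-06 and 9.05e-14).

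ACD6, an ankyrin membrane protein that raises salicylic acid levels, fell in thp1-5 and was not called in sac3bc. It was at 29.4, 37.0 and 31.5 CPM in Col, 11.8, 10.8 and 12.4 CPM in thp1-5, and 35.4, 35.5 and 34.8 CPM in sac3bc, at log2 fold changes of -1.5 ± 0.08 (edgeR adjusted p = 3.65e-37) and 0.10 ± 0.06 (edgeR adjusted p = 0.142). PCC1, a small membrane protein gene induced by pathogens, fell in both. It was at 26.4, 27.2 and 28.7 CPM in Col, 1.93, 1.86 and 1.69 CPM in thp1-5, and 9.79, 11.2 and 11.2 CPM in sac3bc, and was 2.55 ± 0.15 higher in sac3bc than in thp1-5 (edgeR adjusted p = 4.35e-33).

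AIG1, a gene induced by avirulent bacteria, was at 0.529, 1.03 and 0.450 CPM in Col, 1.04, 0.904 and 1.41 CPM in thp1-5, and 5.44, 4.0 and 3.67 CPM in sac3bc, and rose in sac3bc by 2.66 ± 0.28 (edgeR adjusted p = 2.52e-16). WAK1, a wall-associated kinase gene, followed PR2, with means of 10.6, 11.6 and 40.7 CPM in Col, thp1-5 and sac3bc. SAG13 rose by 1.45 ± 0.28 in sac3bc, with -0.78 ± 0.40 in thp1-5 (edgeR adjusted p = 0.0797). WRKY46 followed CBP60G, rising by 0.77 ± 0.25 in thp1-5 and 1.86 ± 0.21 in sac3bc, and the first call was lost without Col replicate 3, at 0.51.

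**Figure D5:**
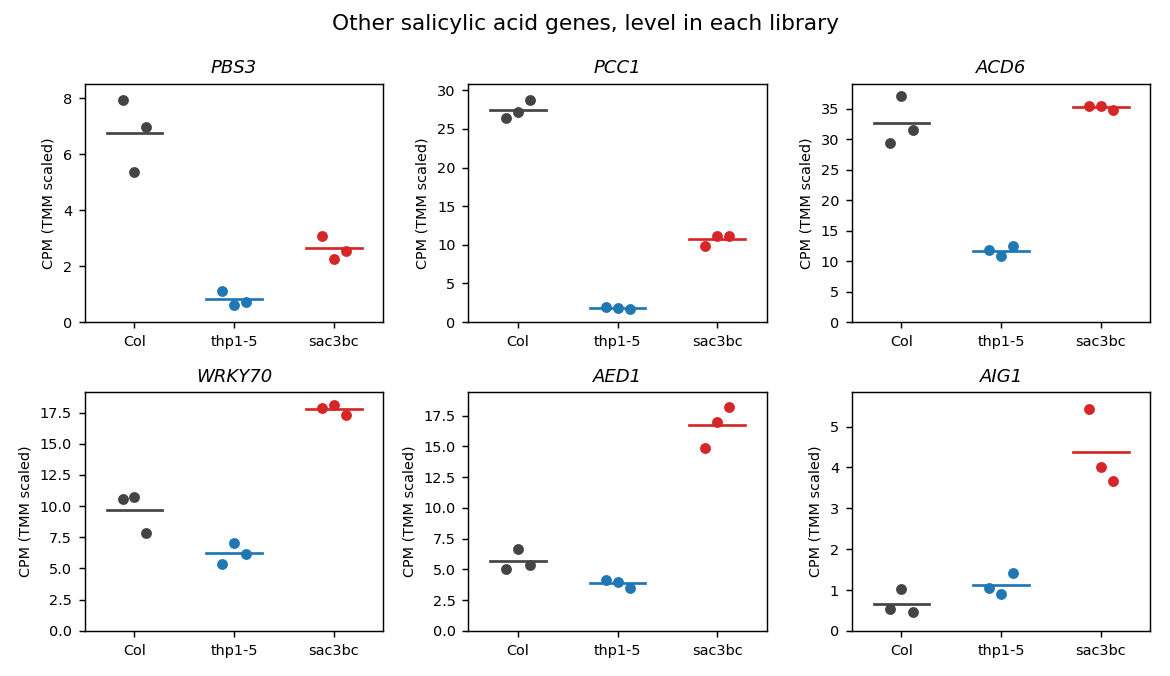
Level of 6 other defence genes in each library, with AED1 from the list of systemic acquired resistance and the rest from the salicylic acid lists. Each panel is 1 gene with its own y axis in CPM (TMM scaled, from 0), points are the 3 libraries of each genotype, and the line is the group mean. PBS3 and PCC1 lie below Col in both mutants, WRKY70 and AED1 lie below Col in thp1-5 and above it in sac3bc, ACD6 is low in thp1-5 alone among the 3 groups, and AIG1 is highest in sac3bc.

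Genes of other defence branches gave the comparison for the salicylic acid genes. Of 7 tested jasmonate and ethylene defence genes, 2 rose and 2 fell in thp1-5 (median -0.16) and 4 rose and 1 fell in sac3bc (median 0.68). Between the mutants 5 were higher and 0 lower in sac3bc (5 and 0 at an unadjusted p under 0.05 and by DESeq2). Their median between the mutants was 0.84, beside 1.29 for the salicylic acid responsive genes and 0.98 for systemic acquired resistance. With total counts 2 rose and 2 fell in thp1-5 and 4 rose and 0 fell in sac3bc, with medians of 0.13 and 1.02. ORA59, the factor that joins both hormones, rose by 1.13 ± 0.27 and 2.15 ± 0.23, and PR4 rose from 46.8 CPM to 71.8 and 117. HCHIB, a basic chitinase gene, was at 23.5, 21.2 and 37.7 CPM, at -0.16 ± 0.08 (edgeR adjusted p = 0.0667) and 0.68 ± 0.07 against Col. It shares 33.07% of its exonic bases with the antisense locus AT3G12502, where reads cannot be told apart, as for SARD1.

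Of 15 tested genes of pattern-triggered immunity, 6 rose and 2 fell in thp1-5 (median 0.20) and 7 rose and 2 fell in sac3bc (median 0.38), or 11 and 2 and 12 and 1 with total counts. Between the mutants 6 were higher and 0 lower in sac3bc (6 and 0 at an unadjusted p under 0.05, 5 and 0 by DESeq2). FRK1, a receptor-like kinase gene induced by flagellin, rose by 0.70 ± 0.24 and 2.06 ± 0.20, and CYP81F2, an enzyme of indole glucosinolate metabolism, by 1.42 ± 0.19 and 2.09 ± 0.17. RBOHD, the oxidase of the immune oxidative burst, rose by 0.89 and 1.2 and BIK1 by 0.78 and 1.01. NHL10 fell in both mutants, by 1.62 and by 1.25.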

How the data were processed

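Polyadenylated RNA from 9 libraries (Col, thp1-5 and sac3bc, 3 each) was made with NEBNext reagents and read as 150 nt single-end reads, per the labels' protocols. The authors deposited raw counts per locus with a gene length for each library. Per the submitters' processing notes, STAR and DESeq2 were used. No label or header used here gives the genome build, annotation, counting tool or use of strand. The deposited lengths equal the summed exon lengths of TAIR10.1 for 99.51% of 37051 loci, including all 10 members, and names, coordinates and promoters were read from TAIR10.1 (RefSeq). The promoter of 1 member is not reported here. 11 listed genes have no name there and are given as loci.

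The 10 members and all gene lists were chosen with earlier results of these data known. Libraries held 12814326 to 17923310 counts, so 3 counts correspond to 0.153 to 0.265 CPM. Within groups, chi-square per gene between replicates was 1.45 to 1.91, above sampling noise. Genes passing filterByExpr (minimum count 10; 22400) were fitted with edgeR 4.0.16 in R 4.3.3 (TMM, robust quasi-likelihood F-test, two-sided) in one model of 3 groups with 6 residual degrees of freedom, with calls at p under 0.05 after Benjamini-Hochberg adjustment. The fit had a common biological coefficient of variation of 0.0284. SE is the log2 fold change, without sign, over the root of F. The intervals for count ratios are exact and cover counting error only. Named genes were all members, up to 4 called genes per list and comparison with Col and up to 2 for sac3bc against thp1-5 by size of change at a mean CPM of at least 1 (or the 2 most abundant), the genes of the genotypes and the 3 genes most like each member (Pearson's r, log2 CPM, prior count 2). NPR1, SAC3A, GIP2, AT3G48080, FMO1, NIMIN2, PDF1.2a, PDF1.2c, DIR1, RPS2 and the genes between LURP1 and PR1 were added after their values were seen. Nearest relatives came from blastn 2.17.0. Alternatives were DESeq2 1.42.0, its size factors in edgeR, total counts, no filter, fits of only the 2 groups compared, a replicate block, and each library left out in turn.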

Additional observations from a re-analysis of the deposited data

Results flagged for a closer look

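PR1 and LURP1 are marked because every thp1-5 library lay below and every sac3bc library above all Col libraries. NIMIN1 had the same order of libraries in CPM but was not tested, with summed counts of 11 in Col, 5 in thp1-5 and 49 in sac3bc. Its counts of 2, 4 and 5 in Col and 1, 2 and 2 in thp1-5 were kept apart only by the scaling. The log2 difference between sac3bc and thp1-5 was 6.26 for PR1 and 3.48 for LURP1. Both genes were chosen with these contrasts in view, so the difference is a description, and the fit's calls on it are no independent test. 5 other genes of the defence lists were called lower in thp1-5 and higher in sac3bc against Col. Of these, AT5G03350 and AED1 are from the list of systemic acquired resistance. Of all tested genes, 31.8% were called lower in thp1-5 and 35% higher in sac3bc. The share called both ways was not counted, so nothing is read from the number of these genes. The log2 difference between sac3bc and thp1-5 was 2.40 for AT5G03350, 2.11 for AED1, 1.5 for WRKY70, 0.68 for DMR6 and 0.40 for UGT74F2. It passed edgeR's quasi-likelihood test for each, but the opposite calls against the same Col libraries that picked these genes largely fix that outcome, so it adds no support. With total counts, the fall in thp1-5 held its call for WRKY70 (-0.34) and AT5G03350 (-1.46), was not called for AED1 (-0.27) and DMR6 (-0.11), and turned to 0.10 for UGT74F2.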

How the results depend on the processing

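All 135 alternative counts of calls (genes, members and other defence genes, in 3 comparisons, 54 by setting and 81 with 1 library left out) stayed within 1.5 times the reported ones. With DESeq2, 12736, 13675 and 3463 genes were called in thp1-5 against Col, sac3bc against Col and sac3bc against thp1-5, where edgeR called 14297, 15232 and 5150. Total counts instead of TMM gave 16152, 17261 and 5468 calls and moved the share of higher calls from 50.2% to 77.6%, from 51.4% to 78.9% and from 47.5% to 67.7%. For the other defence genes that share went from 54.4% to 81.4%, from 68.3% to 91.5% and from 84.8% to 95.6%. The same scaling turned the sign of PR2 (0.07), PR5 (0.17), ICS1 (0.13), SARD1 (0.26) and CAMTA1 (0.10) in thp1-5 against Col, of PAD4 (0.20), CAMTA1 (0.04) and CAMTA3 (0.22) in sac3bc against Col, and of AT2G18750 (0.01) between the mutants. It also brought EDS1 in thp1-5 (0.40) and PR5 (0.80) and PAD4 (0.20) in sac3bc past the threshold against Col. Leaving out 1 library at a time gave PR5 at -0.28 to 0.14 and SARD1 at -0.10 to 0.08 in thp1-5 against Col, both highest without Col replicate 2, and CAMTA3 at -0.01 to 0.07 between the mutants, below 0 without sac3bc replicate 2.

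The ICS1 call in sac3bc against Col was lost with DESeq2 (0.21), with its size factors in edgeR (0.20), and without Col replicate 1 (0.16), Col replicate 2 (0.21) or sac3bc replicate 1 (0.12). PR5 in sac3bc against thp1-5 lost its call with DESeq2 (0.57) and in 4 of the fits with 1 library left out (0.48 to 0.59). EDS1 lost it without thp1-5 replicate 2 (0.18) and ICS1 without thp1-5 replicate 1 (0.27). With only Col and thp1-5 in the fit, PR1 did not pass the filter. The cause of these changes was not tested. Replicate numbers share only a number: deviations of same-numbered libraries correlated at -0.009 to 0.038, and with the replicate block 14258, 15202 and 5093 genes and 4, 7 and 9 members were called. PR1 in thp1-5 and NIMIN1 rest on a few counts each, so depth limits their ratios.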
